A study of Arabidopsis thaliana with 18 samples.

Results

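The early response of the Arabidopsis seed coat and endosperm to cold was examined by comparing 3 wild-type (WT, Col-0) libraries made after 6 h at 13 °C with 3 WT libraries made at 22 °C, both started at 11 days after pollination (DAP). These 6 libraries belong to a series of 18, in which 6 groups of 3 libraries cover WT and myb107-2 plants. Plants grew under long days at 22 °C with flowers tagged as the pollination event, and seeds from siliques of 3 to 4 plants were pooled for each library, after which integument and endosperm were dissected together by hand. The 3 libraries of a group are thus pools of plants, and p-values measure the spread between these pools only. The study's text gives another cold temperature for the transfer than the 13 °C in the sample labels. The hour of harvest is not given in the sources used here, and because the 6 h samples were taken 6 h after the transfer, cold and time of day cannot be told apart. WT libraries after 48 h at 13 °C and at 13 DAP and 22 °C, also 3 each, are used beside these 6 for levels and for 1 further test. In that test, of 48 h against 6 h, the hour of harvest may differ as well.

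The measurements are estimated read counts per gene for 26245 nuclear genes, given here as CPM, counts scaled to a common library total after correction by each library's TMM factor. A CPM value is not divided by gene length, so levels are compared between libraries for 1 gene and not between genes. Library totals ran from 65109376 to 84027379 counts at 22 °C and from 48464862 to 69324277 counts after 6 h, and genes of the ribosomal RNA units took 9.58% to 16.5% of the counts. Replicate 1 at 6 h stood apart. It listed 18658 genes above 0, against 21241 to 21869 in the other 5 libraries, and it listed 1553 genes at 0 that had more than 10 counts in both other 6 h libraries, against 55 to 259 such genes in the other 5. Of the WT libraries used beside these 6, 13 DAP replicate 1 had 47.0% of its counts in ribosomal RNA unit genes. In 48 h replicate 3, 906 genes were at 0 with more than 10 counts in both other 48 h libraries. Both libraries entered the fit of all WT groups. Markers of the tissue were detected as labelled, with summed CPM of 8 seed coat markers from 2503 to 2610 at 22 °C and from 1367 to 1873 after 6 h, and of 7 endosperm markers from 13032 to 17647 and from 6053 to 13353. TT10, a laccase-like gene of the pigmented seed coat, and EPR1, an endosperm-expressed extensin-like gene, made up most of those sums, while TT12 was near 0 and FWA and PHE1 were at 0 in all 6 libraries. The 7 embryo markers tested summed to 33.5 to 44.2 and 28.7 to 42.7 CPM, with STM and PLT2 at 0 in all 6 libraries, and the 4 silique wall markers to 227 to 287 and 283 to 307 CPM.

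Cold acclimation in Arabidopsis works through several layers. Within hours, the CBF/DREB1 transcription factors are induced and activate cold-regulated (COR) genes, whose products protect membranes and proteins from freezing and drying, through a promoter element with the core CCGAC. The circadian clock sets the hours at which this can happen, and its evening-phased genes share another element, AAAATATCT. In seeds, temperature during development also sets dormancy and the composition of the coat.

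After 6 h of cold, 129 genes were higher and 230 were lower than at 22 °C, that is 0.492% and 0.876% of the genes tested, or 1.37% in all. A gene was called where edgeR's quasi-likelihood test gave a Benjamini-Hochberg adjusted p of 0.05 or less and the group means differed by 1 or more on the log2 scale. The adjusted p alone was passed by 2.79% of the genes. The median fold was 2.53 among the higher genes and 2.85 among the lower ones, leaving out 2 and 7 genes that had a group at or under 3 counts in every library. Changes above 4-fold were seen for 29 higher and 53 lower genes, and above 8-fold for 15 and 25. The median log2 fold change of all genes was -0.01. Of the called genes, 125 higher and 226 lower ones were protein-coding. In all 129 and 230 called genes the 6 h libraries did not overlap the 22 °C libraries, so lack of overlap adds no support to a call. Among all genes tested, 9.10% lay wholly higher at 6 h and 12.5% wholly lower. Of the genes called, 7 lower and 0 higher ones were listed at 0 by 6 h replicate 1 alone, as defined above. Such a 0 can only lower the 6 h level, and its part in the 12.5% was not tested. Without replicate 1 at 6 h, 155 genes were higher and 235 lower, of which 104 and 163 were also called with it. The counts were 84 and 99 without 22 °C replicate 2, 76 and 95 without 22 °C replicate 3, 96 and 82 without 6 h replicate 2, and 115 and 131 without 6 h replicate 3.

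**Figure D1:**
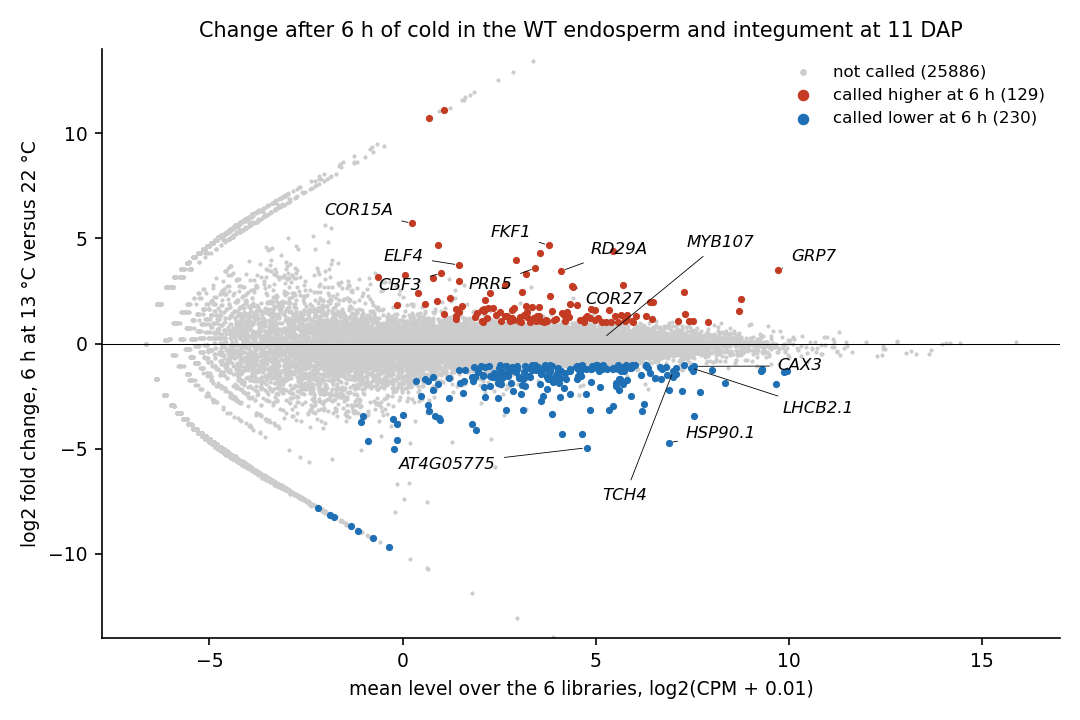
Change of each nuclear gene after 6 h at 13 °C. The x axis is the mean level over the 6 libraries as log2(CPM + 0.01), the y axis the fitted log2 fold change of 6 h against 22 °C; red points are the 129 genes called higher, blue points the 230 called lower and grey points the others, with fitted changes beyond the axis left out. GRP7 stands at the upper right among the higher genes with a log2 fold change of 3.52, HSP90.1 at the lower right with -4.71, and MYB107 lies near 0 at 0.25.

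Of the genes called higher, GRP7 (AT2G21660, chromosome 2) had the smallest adjusted p together with COR27. GRP7 encodes a glycine-rich RNA-binding protein that is an output of the clock and is known to be cold-induced. It stood at 171, 129.7 and 108 CPM at 22 °C and at 1677, 1403 and 1603 CPM after 6 h. Every 6 h library lay far above every 22 °C library, an 11.4-fold rise with a log2 fold change of 3.52 ± 0.20 (SE, n = 3 per group; edgeR adjusted p = 1.8e-06). At 48 h GRP7 stood at 402, 418 and 474 CPM, between the 22 °C and the 6 h levels, and at 13 DAP it stood at 593, 608 and 627 CPM without any cold. Its relative GRP8 (AT4G39260) went from 169, 136 and 183 CPM to 866, 625 and 629.9 CPM, a log2 fold change of 2.12 ± 0.24 (edgeR adjusted p = 0.00071). RZ-1a, a zinc-finger glycine-rich RNA-binding protein with a known part in cold tolerance, went from 13.6, 15.0 and 13.6 CPM to 55.7, 39.5 and 38.2 CPM, a log2 fold change of 1.66 ± 0.33 (edgeR adjusted p = 0.018). RZ-1a was no longer called when any 1 of the 22 °C libraries was left out, with adjusted p from 0.060 to 0.086. It also overlaps AT3G26430 on the same strand, so its reads could be shared.

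The list of cold shock domain and glycine-rich RNA-binding proteins held 13 genes, of which these 3 were called higher and none lower, with a median log2 fold change of 0.42. The share called higher among all genes was 0.492%. GR-RBP2, a mitochondrial member, passed the adjusted p alone with 0.78 ± 0.14 (edgeR adjusted p = 0.012), and the cold shock domain proteins CSP1 and CSP2, RNA chaperones named after their bacterial relatives, had -0.28 and -0.19 with no call. Of 11 nucleolar genes of ribosome biogenesis none was called, with a median of 0.41. In 9 of the 11 the 6 h libraries lay above all 22 °C libraries, a pattern found in 9.10% of all genes. NUC1, a nucleolin that acts in ribosomal RNA transcription, stood at 139.9, 141 and 163 CPM at 22 °C and at 212, 269 and 262 CPM after 6 h. NOP56, a core protein of the small nucleolar particles that methylate ribosomal RNA, stood at 27.8, 29.0 and 30.1 CPM and at 52.8, 52.0 and 53.4 CPM. NUC1, NOP56 and FIB2, a fibrillarin, passed the adjusted p below the fold minimum, with log2 fold changes of 0.74, 0.86 and 0.88 (edgeR adjusted p = 0.0096, 0.0033 and 0.013).

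Among the CBF factors, CBF3 rose and CBF1 and CBF2 were not called. The 3 genes stand side by side on chromosome 4 in the order CBF2 (start 13015250), CBF3 (start 13018010) and CBF1 (start 13021780) in TAIR10.1. CBF3 (DREB1A) was low at 22 °C, with 0.366, 0.339 and 0.365 CPM from 32, 26 and 28 counts, and stood at 2.62, 2.72 and 5.55 CPM after 6 h from 139, 195 and 417 counts. As in every called gene, the groups did not overlap. The log2 fold change was 3.35 ± 0.64 (edgeR adjusted p = 0.015). The call was lost when any 1 of the 22 °C libraries or 6 h replicate 3 was left out, with adjusted p from 0.053 to 0.072, while the log2 fold change stayed between 2.91 and 3.37. CBF3 overlaps AT4G07385 on the opposite strand, and the counting is not stated to use strand.

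CBF1 (DREB1B) stood at 9.12, 6.26 and 6.62 CPM at 22 °C and at 16.4, 11.1 and 14.8 CPM after 6 h, without overlap, but its log2 fold change of 0.94 ± 0.32 did not pass (edgeR adjusted p = 0.15). CBF2 (DREB1C) stood at 9.497, 8.06 and 9.82 CPM and at 10.8, 8.38 and 8.92 CPM, so that its groups overlapped, with a log2 fold change of 0.03 ± 0.31. The 3 genes also differed at 48 h. CBF3 was back to 0.301, 0.376 and 0.880 CPM at 48 h, below its 6 h level by 2.95 on the log2 scale as tested (edgeR adjusted p = 0.013), whereas CBF2 stood at 20.9, 19.1 and 35.1 CPM, above its 6 h level (log2 fold change 1.42, edgeR adjusted p = 0.014). This CBF2 call was lost without 6 h replicate 2 or 3 or 48 h replicate 3, with adjusted p from 0.052 to 0.062, and the CBF3 call without 6 h replicate 3 (adjusted p = 0.063). CBF1 stood at 18.5, 22.4 and 21.2 CPM with no call against 6 h. Of the relatives CBF4, DDF1 and DDF2, none was called at 6 h, and the 6 genes of the list had a median log2 fold change of 0.08. CBF1 and CBF2 share 2.48% and 3.95% of their 50-base windows with other places in the genome, so a small part of their reads could be split.

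Of 12 COR genes, the known targets of the CBF factors, 4 rose and none fell, with a median log2 fold change of 2.12. All 12 fitted changes were positive, and in 10 of them the 6 h libraries lay above all 22 °C libraries. Among all genes tested, 0.492% were called higher, 11406 of 26245 changes were positive and 9.10% had this lack of overlap. RD29A (AT5G52310), a classical cold and drought marker, went from 3.36, 2.83 and 2.49 CPM to 33.3, 25.3 and 36.6 CPM, a 10.9-fold rise (log2 3.45 ± 0.24, edgeR adjusted p = 7.5e-06). LTI30, a dehydrin, went from 3.25, 2.39 and 2.201 CPM to 14.2, 12.8 and 16.5 CPM, a 5.54-fold rise (log2 2.47 ± 0.19, edgeR adjusted p = 1.4e-05). Neither pair of groups came near to overlapping.

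COR15A and COR15B, neighbours on chromosome 2 that encode chloroplast proteins protecting membranes on freezing, were near absent at 22 °C. COR15A had 10, 0 and 0 counts at 22 °C and 187, 84 and 169 counts after 6 h, that is 3.52, 1.17 and 2.25 CPM, a log2 fold change of 5.71 ± 0.92 (edgeR adjusted p = 0.0040). COR15B had no count in any 22 °C library and 187, 125 and 323 counts after 6 h, so it was at least 85.0-fold higher, taking 3 counts in each 22 °C library as the limit (edgeR adjusted p = 0.0024). Both thus rose from levels at or close to the detection limit of these libraries. COR15B overlaps AT2G42520 on the opposite strand. COR15A was not called under edgeR's older quasi-likelihood fit (adjusted p = 0.14), and without 22 °C replicate 1, which held all its warm counts, the fitted change was 10.22 and is no bound.

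The other COR genes were not called. KIN1, a small hydrophilic cold-induced protein, had no count at 22 °C and 57, 31 and 33 counts after 6 h. KIN1 and its copy KIN2 are alike in sequence, so their split is uncertain. GOLS3, a galactinol synthase, was also at 0 at 22 °C and had 1.34, 0.265 and 0 CPM after 6 h. The dehydrins COR47 and ERD10, which bind water and membranes, were already at 89.6 to 188 CPM and 449 to 599 CPM at 22 °C, and stood at 201 to 240 CPM and 669 to 767 CPM after 6 h, with log2 fold changes of 0.65 and 0.44. COR413-PM1, COR413IM1 and COR413IM2, membrane proteins of the plasma membrane and chloroplast, had 0.74, 0.84 and 0.11. The members without a call therefore ranged from genes at 0 in the warm to genes well expressed there. At 48 h, 4 of the 12 COR genes were below and 1 above their 6 h level, where 1.38% and 2.58% of all genes were called lower and higher between these times. RD29A stood at 4.19, 5.16 and 2.68 CPM at 48 h, and COR15A at 0 in all 3 libraries, at least 49.8-fold lower than at 6 h.

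**Figure D2:**
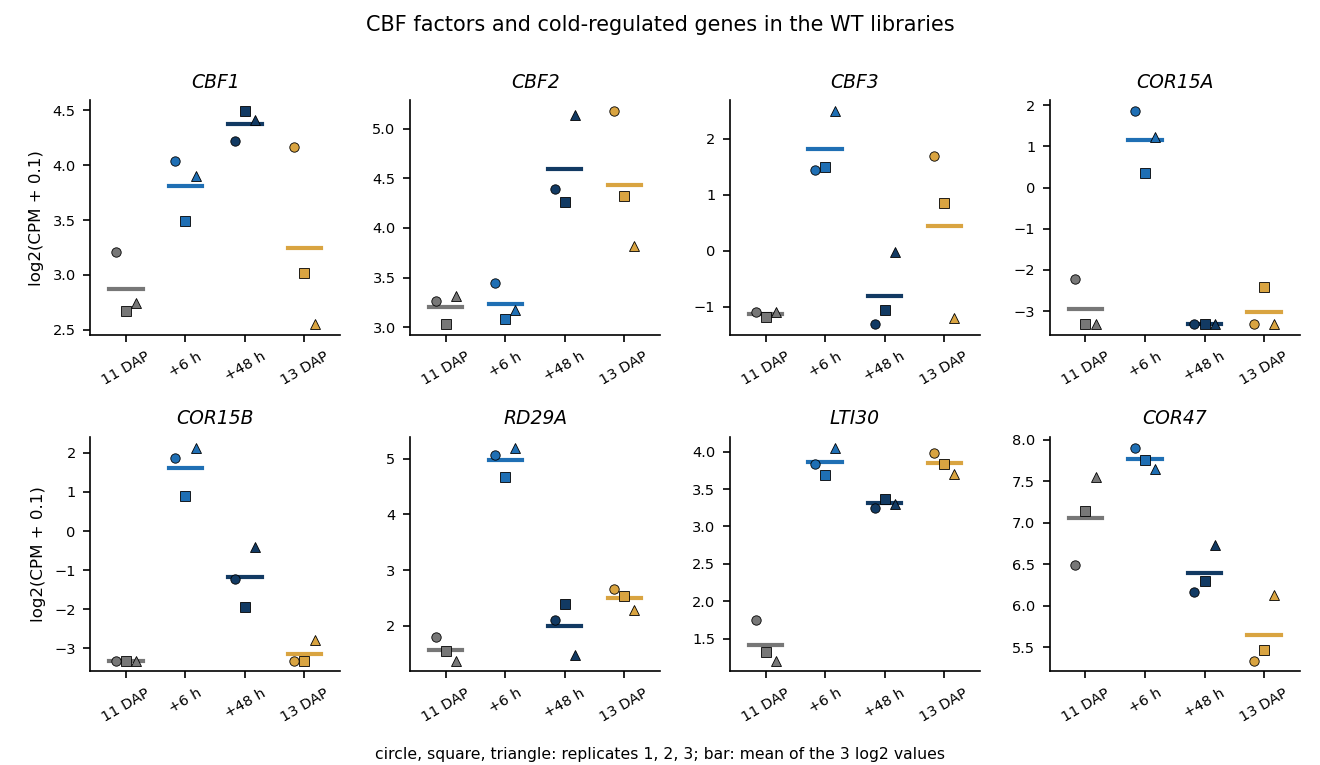
Levels of 3 CBF factors and 5 COR genes in the 12 WT libraries. Each panel shows log2(CPM + 0.1) for 11 DAP at 22 °C, 6 h and 48 h of cold and 13 DAP at 22 °C; circles, squares and triangles are replicates 1, 2 and 3 and bars the mean of the 3 log2 values, with the y axis set per gene and not starting at 0. CBF3, RD29A, COR15A and COR15B are high at 6 h and low at 48 h, while CBF2 is at its 22 °C level at 6 h and higher at 48 h.

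The promoters of COR15A and RD29A are shown because both genes rose strongly and carry the CBF element. The 250 bases before each start site are given 5′ to 3′ on the gene's strand, from RefSeq's TAIR10.1 sequence, at chr2:17712331-17712580 (minus strand) for COR15A and chr5:21240467-21240716 (plus strand) for RD29A. Capitals mark every match, on either strand, to CCGAC, to ACGTG (the core of the abscisic acid response element and part of the G-box CACGTG), to the evening element AAAATATCT, to the related AAAAATCT and to CCGCGT, an element bound by CAMTA factors.
COR15A: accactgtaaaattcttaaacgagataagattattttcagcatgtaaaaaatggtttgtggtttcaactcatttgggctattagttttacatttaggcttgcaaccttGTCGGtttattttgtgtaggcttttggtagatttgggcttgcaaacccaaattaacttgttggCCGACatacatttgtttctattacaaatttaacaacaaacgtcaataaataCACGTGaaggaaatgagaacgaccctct
RD29A: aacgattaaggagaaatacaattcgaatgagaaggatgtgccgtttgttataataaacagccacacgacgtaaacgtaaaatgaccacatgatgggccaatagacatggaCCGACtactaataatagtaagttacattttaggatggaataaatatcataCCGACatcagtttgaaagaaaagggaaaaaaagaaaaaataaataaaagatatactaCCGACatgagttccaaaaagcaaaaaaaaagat

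CCGAC began 142 and 79 bases before the start of COR15A, with a G-box at 28, and 140, 90 and 33 bases before the start of RD29A. LTI30 also has 3 matches in its 250 bases. COR15B, which was also called higher, has none of the 6 motifs there, and nor has CBF3. Among the 12 COR genes 5 have CCGAC in this window (41.7%), against 12.4% of the promoters of all genes tested. Among the genes called higher the share was 15.5% and among those called lower 13.5%. The motif matches are a description and were not tested.

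Other regulators of this branch were not called at 6 h. None of 14 upstream regulators of the CBF genes passed, ICE, CAMTA and PIF genes among them, with a median of -0.12. Nor did any of 13 transcription factors known to rise in parallel with the CBFs, with a median of -0.02. ZAT12, a zinc-finger repressor of this kind, stood at 288, 204 and 202 CPM at 22 °C and 327, 206 and 214 CPM after 6 h, then at 506, 510.1 and 643 CPM at 48 h. ZAT10, ZAT12, CZF1 and ERF5, all stress-responsive transcription factor genes, were called higher at 48 h than at 6 h, with log2 fold changes from 1.11 to 1.601.

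The circadian clock list of 29 genes held 5 higher and 1 lower gene, with a median of -0.05. Of all genes tested, 0.492% were called higher and 0.876% lower. The 5 that rose are known as afternoon- or evening-phased in vegetative tissue. PRR5 (AT5G24470), a pseudo-response regulator that represses morning genes, went from 1.90, 1.88 and 1.198 CPM to 9.77, 25.02 and 25.03 CPM, a 12.03-fold rise (log2 3.59 ± 0.34, edgeR adjusted p = 0.00013). FKF1 (AT1G68050), a blue-light receptor that acts with GI in flowering time, went from 1.21, 0.795 and 1.12 CPM to 8.47, 30.5 and 40.6 CPM, a 25.4-fold rise (log2 4.67 ± 0.46, edgeR adjusted p = 0.00021). In both genes 6 h replicate 1 was lower than the other 6 h libraries but above all 22 °C libraries.

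Of the evening complex, ELF4 and LUX moved the same way, as did GI, while ELF3 was not called. ELF4, a subunit of that complex, went from 0.503, 0.391 and 0.234 CPM to 5.89, 4.16 and 5.27 CPM (log2 3.74 ± 0.37, edgeR adjusted p = 0.00021). LUX, its DNA-binding subunit, went from 8.88, 10.5 and 11.3 CPM to 21.6, 26.3 and 29.5 CPM (log2 1.34 ± 0.16, edgeR adjusted p = 0.0011). GI, a large clock scaffold protein, went from 31.8, 31.7 and 31.0 CPM to 55.1, 89.9 and 99.5 CPM (log2 1.37 ± 0.22, edgeR adjusted p = 0.0053). As in every called gene, these groups did not overlap. FKF1 and LUX each overlap a gene on the opposite strand, AT1G68060 and AT3G46650. TOC1, an evening repressor, passed the adjusted p but not the fold minimum, with 17.1, 22.0 and 15.2 CPM against 27.6, 36.7 and 36.1 CPM (log2 0.89 ± 0.21, edgeR adjusted p = 0.037), and it was called when 6 h replicate 1 was left out.

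The gene that fell was RVE8, a clock activator of evening genes, from 15.703, 15.4 and 12.4 CPM to 5.18, 5.67 and 3.88 CPM, 2.96-fold lower (edgeR adjusted p = 0.0019). The central morning genes were not called. CCA1 stood at 42.7, 28.8 and 19.4 CPM and at 22.0, 34.6 and 25.7 CPM, LHY at 87.1, 72.7 and 51.0 CPM and at 36.9, 60.2 and 46.1 CPM, so both overlapped, with log2 fold changes of -0.14 and -0.56. PRR7, a daytime repressor, had 0.51. At 48 h CCA1 stood at 60.6, 61.3 and 39.5 CPM, while at 13 DAP without cold it stood at 7.48, 5.94 and 4.22 CPM and LHY at 11.1, 6.89 and 4.86 CPM. The 11 DAP and 13 DAP libraries, both at 22 °C, thus differed widely in both morning genes. The hour at which each group was collected cannot be told apart from its treatment or stage.

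**Figure D3:**
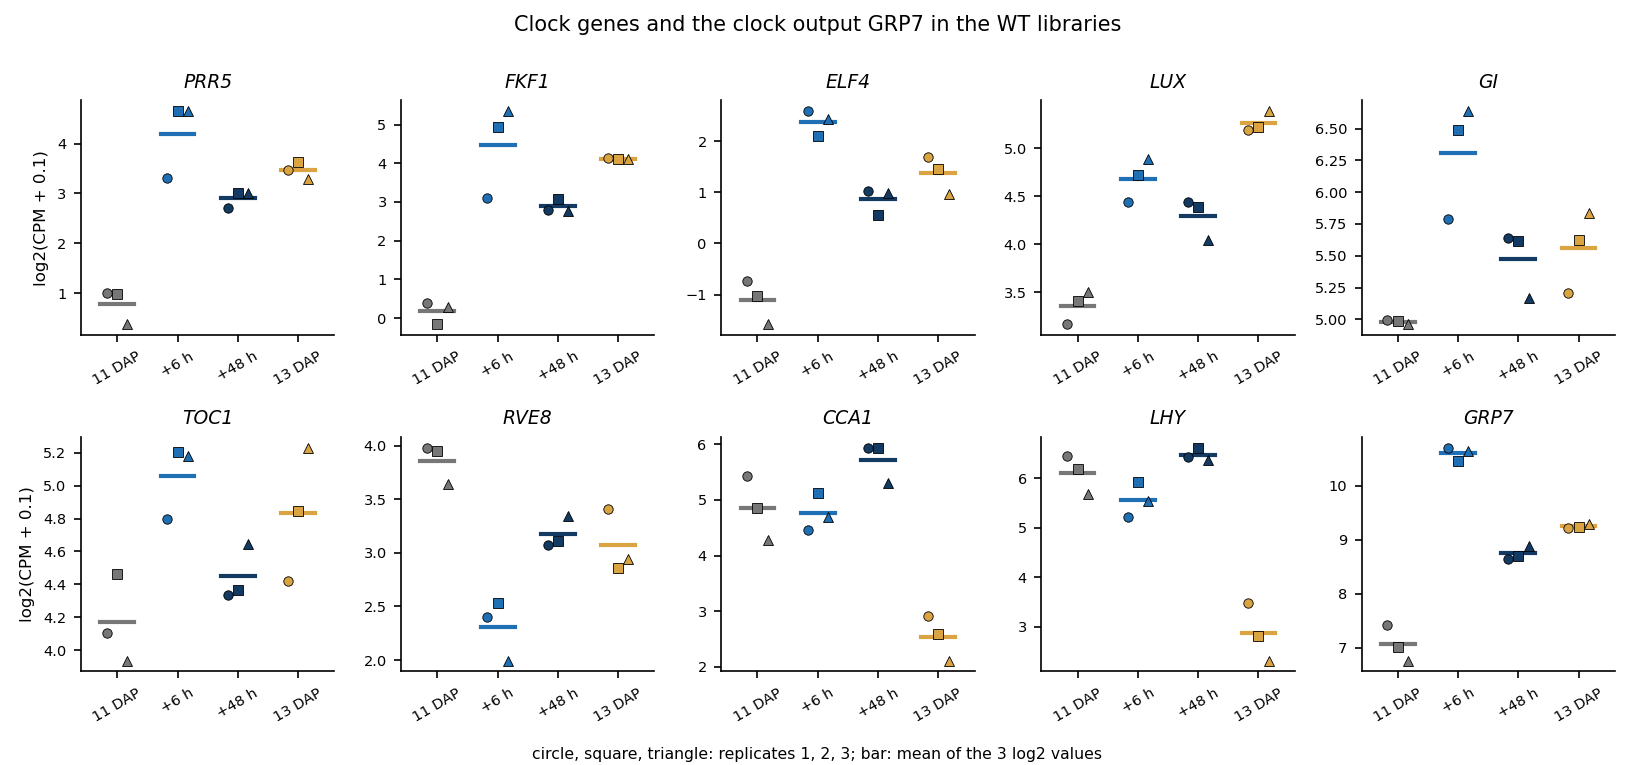
Levels of 9 clock genes and of the clock output GRP7 in the 12 WT libraries. Each panel shows log2(CPM + 0.1) for 11 DAP at 22 °C, 6 h and 48 h of cold and 13 DAP at 22 °C; circles, squares and triangles are replicates 1, 2 and 3 and bars the mean of the 3 log2 values, with the y axis set per gene and not starting at 0. PRR5, FKF1, ELF4, LUX, GI and GRP7 have all 6 h libraries above all 11 DAP libraries, RVE8 has them below, and CCA1 and LHY overlap at 6 h and are lowest at 13 DAP.

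Among the genes with the smallest p-values that no list held were 3 with low spread in both groups. COR27 (AT5G42900), a cold-induced regulator of flowering and freezing tolerance that is repressed by the clock, went from 6.07, 4.64 and 6.38 CPM to 35.7, 34.3 and 40.8 CPM, a 6.48-fold rise (log2 2.70 ± 0.16, edgeR adjusted p = 1.8e-06). AT4G33980, for which RefSeq gives no gene symbol, went from 0.994, 1.47 and 0.925 CPM to 18.25, 24.9 and 23.54 CPM, a 19.7-fold rise. BBX13, a B-box zinc finger protein, went from 4.95, 4.90 and 4.62 CPM to 22.2, 22.5 and 25.3 CPM, a 4.84-fold rise. As in every called gene, the groups of these 3 did not overlap. At 13 DAP and 22 °C these 3 genes stood at 23.0 to 27.6 CPM, at 9.86 to 13.95 CPM and at 21.3 to 23.3 CPM, above their 11 DAP levels without any cold.

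The promoters of GRP7, PRR5 and FKF1 are shown because these 3 genes rose, are outputs or parts of the clock, and each has an evening element in the 250 bases before its start. They lie at chr2:9266558-9266807 (GRP7, minus strand), chr5:8358547-8358796 (PRR5, minus strand) and chr1:25508389-25508638 (FKF1, plus strand) in TAIR10.1 and are given 5′ to 3′ on the gene's strand from RefSeq, with the same motifs in capitals as above.
GRP7: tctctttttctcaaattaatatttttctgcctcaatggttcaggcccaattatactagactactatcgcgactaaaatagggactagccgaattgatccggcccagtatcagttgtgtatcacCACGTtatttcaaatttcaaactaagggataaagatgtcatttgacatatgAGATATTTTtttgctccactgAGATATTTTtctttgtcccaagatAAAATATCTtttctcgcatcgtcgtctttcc
PRR5: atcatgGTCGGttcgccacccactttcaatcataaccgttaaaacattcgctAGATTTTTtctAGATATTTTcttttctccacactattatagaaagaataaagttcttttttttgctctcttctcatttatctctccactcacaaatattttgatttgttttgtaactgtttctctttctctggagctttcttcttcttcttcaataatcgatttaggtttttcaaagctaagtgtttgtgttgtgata
FKF1: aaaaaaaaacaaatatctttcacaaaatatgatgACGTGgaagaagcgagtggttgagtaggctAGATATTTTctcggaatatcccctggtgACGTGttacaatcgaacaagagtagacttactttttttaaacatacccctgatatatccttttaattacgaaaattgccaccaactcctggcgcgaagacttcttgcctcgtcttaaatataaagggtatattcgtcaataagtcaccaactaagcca

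AAAATATCT, read on either strand, began 76, 55 and 31 bases before the start of GRP7, 187 bases before that of PRR5 and 186 bases before that of FKF1. LUX, TOC1, GRP8 and BRU6 have it as well, and GI and BBX13 have none of the 6 motifs in this window. Among all genes called higher, 25 of 129 promoters (19.4%) hold AAAATATCT, against 3 of 230 among genes called lower (1.304%) and 2.33% of 26244 promoters of genes tested. For ACGTG the shares were 27.1%, 23.48% and 22.4%, for the G-box CACGTG 10.9%, 7.39% and 6.55%, for AAAAATCT 7.75%, 10% and 6.33%, and for CCGCGT 0%, 1.304% and 1.85%. These shares describe the letters in this window only and were not tested.

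The remaining genes with the smallest p-values in the higher direction were BRU6, ACD32.1, AT2G33830 and AT1G11210. BRU6, a GH3 enzyme that conjugates auxin to amino acids, went from 16.3, 10.7 and 13.2 CPM to 96.0, 88.1 and 90.2 CPM, a 6.80-fold rise, and stood at 92.3, 107 and 70.4 CPM at 48 h. ACD32.1, a peroxisomal protein with an alpha-crystallin domain, rose by 3.32 on the log2 scale from 1.58, 1.99 and 1.42 CPM to 19.2, 13.8 and 16.9 CPM and stood at 1.71 to 2.75 CPM at 48 h. It overlaps another gene on the opposite strand. These 2 genes thus differed at 48 h, BRU6 remaining high and ACD32.1 standing near its 22 °C level. AT2G33830, annotated as a dormancy and auxin associated family protein, rose 21.4-fold from 6.37, 3.27 and 2.03 CPM to 86.6, 78.2 and 87.1 CPM. AT1G11210, a protein with a domain of unknown function, rose 15.703-fold from 1.34, 0.600 and 0.768 CPM to 18.15, 11.8 and 13.2 CPM. Both lay between their 22 °C and 6 h levels at 48 h, at 37.1 to 43.9 CPM and 4.34 to 5.12 CPM.

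Heat shock factors and chaperones, which fold and protect proteins under stress, held 1 gene that rose and 3 that fell of 26, with a median log2 fold change of -0.44. The shares called among all genes were 0.492% higher and 0.876% lower. HSP90.1 (AT5G52640), the heat-inducible cytosolic HSP90, fell from 71.2, 402 and 217 CPM to 11.4, 7.40 and 7.67 CPM, 26.2-fold lower (log2 -4.71 ± 0.69, edgeR adjusted p = 0.0035). HSP70 (AT3G12580) fell from 669, 1869.6 and 1341 CPM to 477, 273 and 279 CPM, 3.77-fold lower (edgeR adjusted p = 0.027), and the small heat shock protein HSP17.4 from 7.03, 41.5 and 31.7 CPM to 4.12, 2.31 and 1.52 CPM, 10.3-fold lower (edgeR adjusted p = 0.025). The 22 °C libraries were themselves uneven, with replicates 2 and 3 above replicate 1 in all 3 genes. HSP70 and HSP17.4 were no longer called without 22 °C replicate 2 or 3 or 6 h replicate 2 or 3, with adjusted p from 0.086 to 0.13, and HSP17.4 was also lost with robust empirical Bayes (adjusted p = 0.082). HSP90.1 was called in each of these settings, with a change of -4.02 without 22 °C replicate 2. HSFA1E, a constitutive heat shock factor, rose from 7.09, 4.18 and 3.41 CPM to 13.1, 14.5 and 14.1 CPM (log2 1.502 ± 0.30, edgeR adjusted p = 0.019), and lost its call without 22 °C replicate 2 or 3 or 6 h replicate 2. At 48 h, 7 genes of the list were above their 6 h level and none below, against 2.58% and 1.38% of all genes. HSP101, the disaggregating chaperone, was among the 7, with 61.5, 42.9 and 39.1 CPM at 6 h and 178, 206 and 199 CPM at 48 h.

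Of 21 wounding, touch and jasmonate early genes 3 fell and none rose, where 0.876% of all genes were called lower. Of the fitted changes 19 were negative (median -0.45), against 13342 of 26245 among all genes. Hand dissection can induce wounding, touch and jasmonate genes, and its part in these values was not tested. TCH4, a touch-induced xyloglucan endotransglucosylase, fell from 151, 185 and 215 CPM to 89.9, 62.7 and 71.6 CPM (log2 -1.30 ± 0.18, edgeR adjusted p = 0.0024). WRKY18, a defence transcription factor, fell from 12.6, 29.6 and 26.2 CPM to 7.23, 7.77 and 6.82 CPM (log2 -1.65 ± 0.29, edgeR adjusted p = 0.0096), and JAZ8, a jasmonate repressor, from 0.937, 0.991 and 0.729 CPM to 0, 0 and 0.213 CPM (log2 -3.45 ± 0.85, edgeR adjusted p = 0.039). WRKY18 was not called without 22 °C replicate 2 (adjusted p = 0.053). JAZ8 was lost with any 1 of the 6 compared libraries left out other than 6 h replicate 3 (adjusted p from 0.061 to 0.14). It was also lost under edgeR's older fit (adjusted p = 0.070) and in a fit of the 6 compared libraries only (adjusted p = 0.098). The JAZ8 change lay between -2.82 without 6 h replicate 2 and -8.88 without 6 h replicate 3, which held its only 6 h counts, and that last value is no bound. At 48 h, 11 of the 21 were above their 6 h level and none below, against 2.58% and 1.38% of all genes. JAZ1 was among the 11, with 139, 172 and 173 CPM at 6 h and 350.3, 380.2 and 352 CPM at 48 h.

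**Figure D4:**
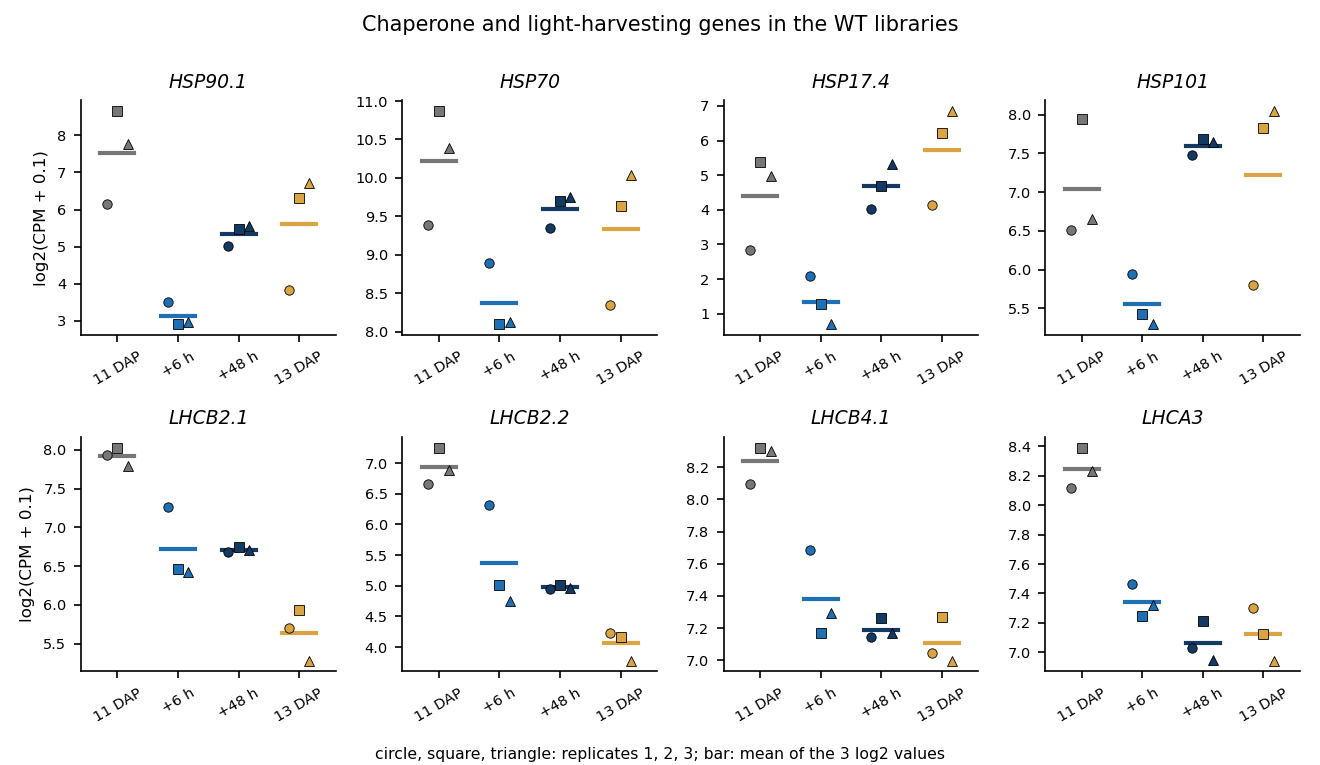
Levels of 4 chaperone genes and 4 light-harvesting genes in the 12 WT libraries. Each panel shows log2(CPM + 0.1) for 11 DAP at 22 °C, 6 h and 48 h of cold and 13 DAP at 22 °C; circles, squares and triangles are replicates 1, 2 and 3 and bars the mean of the 3 log2 values, with the y axis set per gene and not starting at 0. The chaperone genes are low at 6 h and uneven among the 22 °C libraries, and the light-harvesting genes are lower at 6 h, at 48 h and at 13 DAP than at 11 DAP.

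Of 19 nuclear genes of the photosystems, their antennae and Rubisco, 2 fell and none rose, and 17 changes were negative (median -0.57). Among all genes tested, 0.876% were called lower and 13342 of 26245 changes were negative. LHCB2.1 and LHCB2.2 encode proteins of the main light-harvesting antenna. LHCB2.1 fell from 244, 261 and 221 CPM to 154, 88.1 and 85.8 CPM (log2 -1.15 ± 0.22, edgeR adjusted p = 0.013), and LHCB2.2 from 101, 152 and 118 CPM to 79.8, 32.3 and 27.0 CPM (log2 -1.42 ± 0.32, edgeR adjusted p = 0.030). In both, 6 h replicate 1 stood highest among the 6 h libraries, and both lost their call without 22 °C replicate 2 or 6 h replicate 2 or 3. LHCB2.2 was also lost without 22 °C replicate 3 (adjusted p = 0.089) and in a fit of the 6 compared libraries only (adjusted p = 0.11), and its change was -2.06 without 6 h replicate 1. The 2 genes share 23.55% and 29.5% of their 50-base windows with other places in the genome, so reads could be split between near-identical copies. LHCB4.1, LHCA2 and LHCA3, of the minor antenna and of photosystem I, passed the adjusted p below the fold minimum, with log2 fold changes of -0.84, -0.75 and -0.91. In bulk tissue, fewer green cells and less RNA per cell cannot be told apart.

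Hormone and dormancy genes contributed single calls, where 0.492% of all genes were called higher. ABI5, a transcription factor of the abscisic acid response in seeds, rose from 1.61, 1.79 and 1.54 CPM to 10.3, 5.64 and 5.25 CPM, 4.26-fold (log2 2.09 ± 0.38, edgeR adjusted p = 0.012), and lost its call without 22 °C replicate 3 (adjusted p = 0.065). It was the single member called of 20 abscisic acid signalling genes. SNRK2.2, a kinase of this pathway, passed the adjusted p with a log2 fold change of 0.87, from 51.6, 51.2 and 54.7 CPM to 88.8, 97.8 and 102 CPM. RDO5, a phosphatase-like protein that promotes seed dormancy, rose from 4.46, 3.17 and 4.58 CPM to 9.38, 15.9 and 17.41 CPM, 3.50-fold (log2 1.81 ± 0.25, edgeR adjusted p = 0.0023), the single member called of 8 dormancy regulators. DOG1, the central dormancy regulator, stood at 3.11, 2.06 and 6.94 CPM and at 5.50, 7.42 and 6.48 CPM with overlap, and at 19.1, 22.0 and 39.8 CPM at 48 h.

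None of 12 genes of abscisic acid synthesis and breakdown was called. NCED9, a rate-limiting synthesis enzyme of seeds, had 33.9, 26.9 and 19.1 CPM and 19.6, 30.9 and 28.5 CPM. CYP707A2, which breaks the hormone down, had 0.503, 0.561 and 1.52 CPM and 0, 0.615 and 0.186 CPM. Its 0 is from 6 h replicate 1, which listed many genes at 0 that the other 6 h libraries counted. Among 15 genes of gibberellin metabolism and DELLA proteins none was called, with a median of -0.62. The DELLA genes RGA, GAI and RGL2, which encode repressors of gibberellin responses, passed the adjusted p below the fold minimum, with log2 fold changes of -0.85, -0.80 and -0.95 (edgeR adjusted p = 0.0054, 0.043 and 0.0081). RGL2 stood at 51.8, 49.1 and 51.3 CPM and at 24.3, 24.6 and 29.8 CPM, with all 6 h libraries below all 22 °C libraries.

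Among sugar and osmolyte genes BAM3, a plastid beta-amylase that releases maltose from starch and is known to be cold-induced in leaves, rose from 70.5, 43.4 and 29.3 CPM to 208, 242 and 341 CPM, 5.52-fold (log2 2.46 ± 0.30, edgeR adjusted p = 0.0011). All 6 h libraries were above all 22 °C libraries. The other 10 genes of that list were not called, nor was any of 9 fatty acid desaturases. By comparison, 0.492% of all genes tested were called higher. FAD3, which makes linolenic acid, stood at 92.6, 99.2 and 104 CPM and at 83.6, 112 and 133 CPM. BAM3 overlaps a gene on the opposite strand.

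The genes of the coat barrier, which are the study's subject, did not pass at 6 h. MYB107 (AT3G02940), a MYB factor of suberin and lignin genes, stood at 39.99, 27.2 and 33.6 CPM at 22 °C and at 39.4, 44.6 and 36.0 CPM after 6 h. Its log2 fold change was 0.25 ± 0.19 (edgeR adjusted p = 0.57). An approximate 95% interval ran from -0.12 to 0.62. It assumes a normal distribution and is somewhat too narrow for so few libraries. MYB9, its close relative, had 0.514, 0.756 and 3.07 CPM and 0, 1.80 and 1.21 CPM. The 0 is from 6 h replicate 1, which listed many genes at 0 that the other 6 h libraries counted. Without that library the MYB9 log2 fold change was 0.07. None of 21 suberin genes and MYB factors and none of 25 phenylpropanoid and lignin genes was called in either direction, and 6 of the suberin genes had no count in any of the 6 libraries.

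At 48 h, 9 of these 21 suberin list members and 7 of the 25 lignin list members were above their 6 h level, and none was below. Of all genes tested, 2.58% were called higher and 1.38% lower between these times. MYB9 stood at 27.5, 18.3 and 48.0 CPM at 48 h, with a log2 fold change of 4.87 over 6 h (edgeR adjusted p = 0.00098). GPAT5, an acyltransferase of suberin synthesis, had 0.377, 0 and 0.339 CPM at 22 °C, 0, 0 and 0.133 CPM after 6 h and 20.0, 11.2 and 46.9 CPM at 48 h. LAC5, a laccase of the lignin list, had 52.1, 51.2 and 95.5 CPM at 22 °C, 33.9, 55.1 and 54.3 CPM after 6 h and 242, 146 and 231 CPM at 48 h. All 3 were higher at 13 DAP without cold than at 11 DAP, GPAT5 with 154, 167 and 198 CPM. In 48 h against 6 h, longer cold and further development change together. The hour of harvest, which is not given, may differ as well. The 13 DAP libraries match the 48 h ones in age, but these groups were not compared by a test here.

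In the coat's other pathways 1 gene was called, where 0.876% of all genes were called lower. TT2, a MYB factor that activates proanthocyanidin genes, fell from 11.9, 15.4 and 16.4 CPM to 7.005, 8.56 and 5.69 CPM (log2 -1.04 ± 0.25, edgeR adjusted p = 0.040), just past the fold minimum, and lost its call when any 1 of the 6 compared libraries other than 22 °C replicate 1 was left out (adjusted p from 0.072 to 0.16). It was also not called under edgeR's older quasi-likelihood fit (adjusted p = 0.055) or in a fit of the 6 compared libraries only (adjusted p = 0.053). It was the single member called of 23 flavonoid genes, in which TT4, chalcone synthase, stood at 408, 326 and 321 CPM and at 429, 512 and 537 CPM (log2 0.49, edgeR adjusted p = 0.31). TT2 is also 1 of the 8 seed coat markers, whose summed level was lower at 6 h as given above, and the part of that shift in this change was not tested. None of 16 mucilage and coat epidermis genes was called, with a median of -0.32, and none of 18 seed maturation genes.

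Of the genes with the smallest p-values in the lower direction, AT4G05775, a long non-coding RNA that overlaps the protein-coding gene AT4G10270 on the opposite strand, fell from 37.7, 34.9 and 85.3 CPM to 1.58, 2.26 and 1.22 CPM, 31.1-fold lower. Its counts could hold reads of the partner gene. CAX3, a vacuolar calcium and proton exchanger, fell from 247, 265 and 257 CPM to 111, 123.1 and 128 CPM, 2.12-fold lower (edgeR adjusted p = 0.00094), with little spread in either group, and stood at 279, 236 and 269 CPM at 48 h. AT2G45220, a pectin methylesterase or its inhibitor by annotation, fell from 72.0, 52.3 and 106.6 CPM to 5.91, 10.9 and 12.5 CPM, 7.83-fold lower. TUB8, a beta-tubulin, fell from 57.7, 74.3 and 85.7 CPM to 25.9, 28.6 and 32.2 CPM, 2.51-fold lower. The others of the 10 were CYP72A8, a cytochrome P450 (9.04-fold lower), AT1G20030, a thaumatin-like protein (4.15-fold), AT1G21500, an uncharacterized protein (4.01-fold), AT5G14450, a GDSL lipase by annotation (3.02-fold), AT1G69840, a membrane-associated band 7 protein (2.85-fold), and AT1G66130, a Rossmann-fold protein (2.40-fold).

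Across the 23 gene lists, 11 had a member called at 6 h and 12 had none, and the called members were 17 higher and 10 lower genes. Lists and markers together held 380 tested genes, and 0.492% and 0.876% of all genes were called higher and lower. Between 6 h and 48 h, of the genes called higher at 6 h 27 of 129 were called lower at 48 h than at 6 h and 4 higher, and of those called lower 48 of 230 were called higher and 7 lower. These genes were picked by their 6 h level, so the counts describe them and are no test. The 4 lists of type-A cytokinin response regulators, light and temperature signalling, mucilage and fatty acid desaturases were among those with no call at 6 h.

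**Figure D5:**
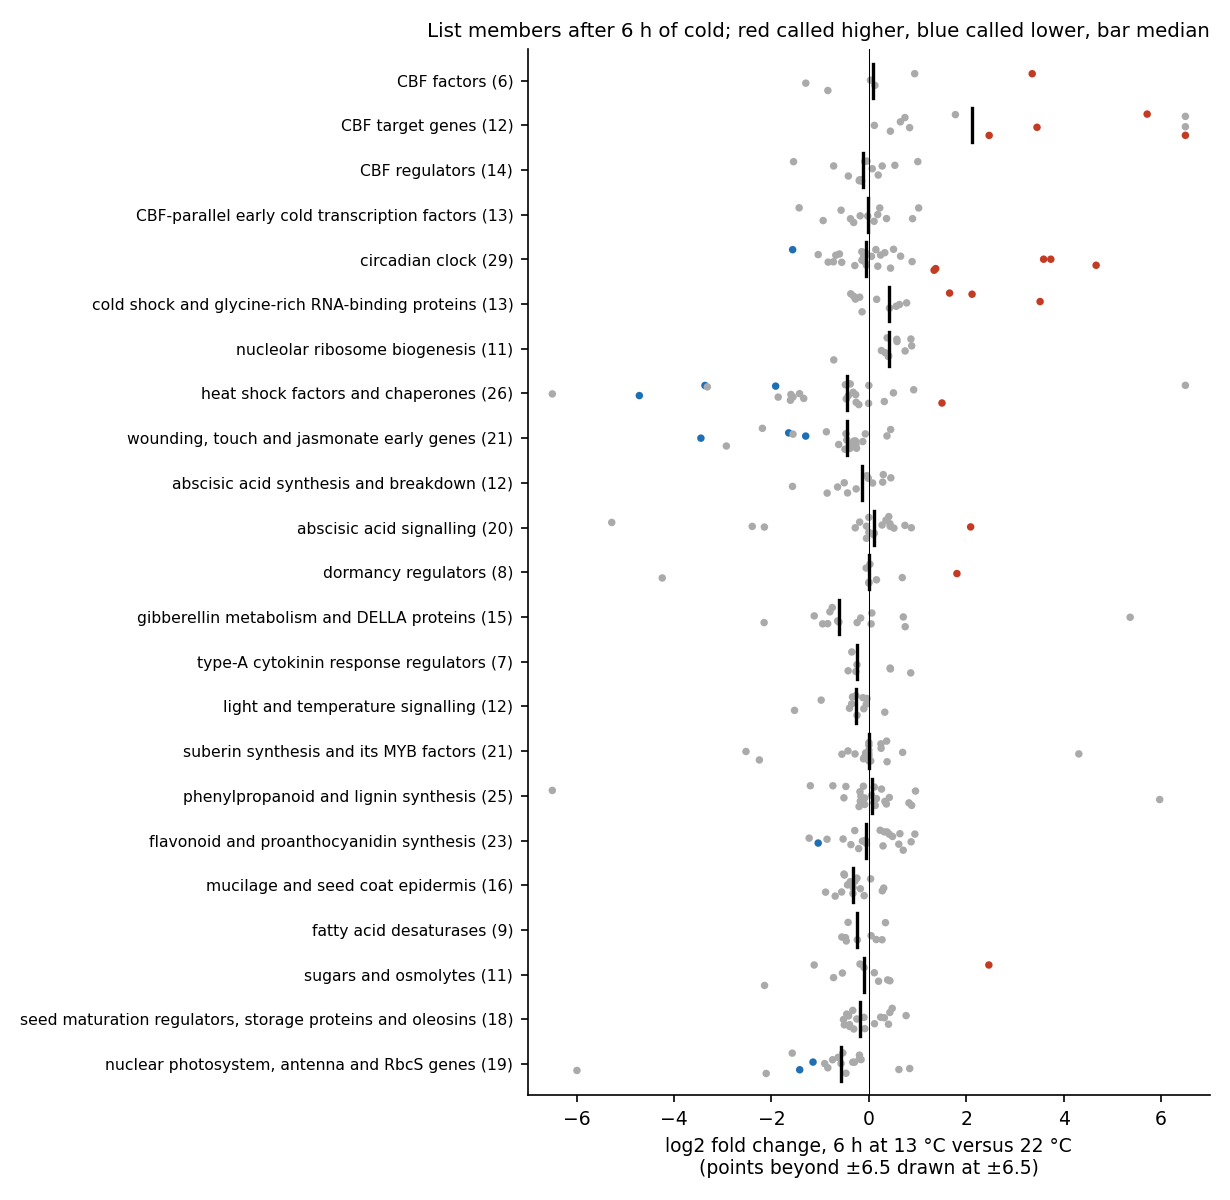
Fitted log2 fold change of 6 h at 13 °C against 22 °C for each tested member of the 23 lists, with the number of members in parentheses. Points are genes, red called higher, blue called lower and grey not called, vertical bars are list medians, and values beyond 6.5 in size are drawn at 6.5. The COR list has a median of 2.12 with 4 members called higher, and the photosystem list a median of -0.57 with 2 called lower.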

How the data were processed

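Estimated counts per gene were deposited by the authors, whole numbers with no normalization, made from stranded poly(A) libraries with Trim Galore, Sickle, HISAT2 and StringTie on Galaxy; versions, genome build and the use of strand in counting are not given in the sources used here. Files hold 37985 rows. Of 37883 nuclear genes, 22 were left out because 5 files hold dates in place of their counts. Rows of no nuclear gene (median 0.851% of counts) stayed out of library sizes. Gene IDs, names, coordinates and promoters are those of RefSeq, TAIR10.1.

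Counts, rounded to whole numbers, of the 26245 nuclear genes with at least 1 count in the 12 WT libraries were fitted with edgeR 4.0.16 (R 4.3.3; limma 3.58.1): TMM factors, 1 mean per group, the quasi-likelihood test, Benjamini-Hochberg adjustment over all genes, no block. All 4 WT groups share 1 estimate of the spread. Each SE was derived from the log2 fold change and its test statistic, and so rests on that shared estimate. The same fit gave 48 h against 6 h. Calls needed group means 1 or more apart on the log2 scale and an adjusted p not above 0.05. Folds against a group with no more than 3 counts in every library use that limit and are lower bounds. The script was tested on simulated data. Alternatives included DESeq2 1.42.0, other normalizations, filters and library sets, and each library left out. Leaving out 48 h replicate 3 and 13 DAP replicate 1, and every alternative for 48 h against 6 h, were chosen after seeing the data.

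The genes named were the 10 with the smallest p-value in each direction among called genes whose groups do not overlap, at most 6 called members of each list, and 18 genes named whatever their values; genes named beyond these were chosen after their values were seen. Members and lists were chosen with earlier results of these data known.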

Additional observations from a re-analysis of the deposited data

Results flagged for a closer look

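For 7 of the 18 genes named whatever their values, the level after 48 h at 13 °C differed from that after 6 h by the same edgeR test. CBF2 was higher at 48 h by a log2 fold change of 1.42 and CBF3 lower, with -2.95, but CBF2 was not called without 6 h replicate 2 or 3 or 48 h replicate 3, nor CBF3 without 6 h replicate 3. COR15A was at least 49.78-fold lower at 48 h, where it had no count. MYB9 (4.87), GPAT5 (8.96), LAC5 (2.11) and DOG1 (2.05) were higher at 48 h on the log2 scale. The GPAT5 value rests at 6 h on the 10 counts of replicate 3, and was 13.74 without that library. The 48 h seeds were also older by that time, so age and cold change together in this test. The 13 DAP libraries made without cold match the 48 h ones in age, but these groups were not compared by a test here. The part of age in these differences was therefore not tested.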

How the results depend on the processing

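DESeq2 called 215 genes higher and 405 lower, among them all 129 and 223 of the 230 of edgeR. With no fold minimum 315 and 416 were called, and 26 and 16 list members against 17 and 10. Leaving out in turn each of the 6 compared libraries, 48 h replicate 3 and 13 DAP replicate 1 gave 76 to 160 genes higher and 82 to 258 lower, the highest counts without 13 DAP replicate 1, and 14 to 19 and 3 to 13 list members. Of the 48 h and 13 DAP libraries the others were not left out. For 48 h against 6 h, the 57 higher list and marker genes became 36 to 60 and the 20 lower ones 14 to 22, with 36 without 6 h replicate 2. Same-numbered libraries deviated together with correlations of only 0.05, 0.07 and -0.02, so the libraries were not treated as paired, and a fit with a replicate block gave 127 and 199 calls, with adjusted p of 0.061 for HSP70, 0.070 for JAZ8 and 0.054 for TT2. Of the genes named by the rule at 6 h, NCED9, CCA1, CBF2 and MYB9, none of them called, turned direction in at least 1 setting run, and other genes in the text were not run. NCED9 (-0.01) took 0.0217 with upper-quartile factors, 0.0226 with the replicate block, 0.00465 with at least 10 counts in every library, 0.00191 with all 18 libraries and 0.00737 with only the 6 libraries. Over the same left-out libraries, NCED9 ran from -0.20 to 0.20, CCA1 from -0.38 to 0.19, CBF2 from -0.0767 to 0.12 and MYB9 from -1.07 to 0.75. The cause of these shifts was not tested. The median of all genes moved by at most 0.051 on the log2 scale between settings. With 3 libraries a group, and 1 of them listing many genes at 0, low genes are measured least well.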

Other observations

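The following groups were chosen after their values were seen, so their counts are a description. For scale, 0.492% of all genes tested were called higher and 0.876% lower. Among 53 arabinogalactan and fasciclin-like proteins, which are glycoproteins of the cell surface, 7 fell after 6 h and none rose, and all 40 with a mean of at least 1 CPM had negative log2 fold changes, against 9122 of 17497 among all genes at that level. AGP12 stood at 112, 259 and 376 CPM at 22 °C and at 47.8, 49.8 and 58.6 CPM after 6 h (log2 -2.26, edgeR adjusted p = 0.00225). Plasma membrane aquaporins, the water channels of that membrane, held 3 genes that fell of 15, against 0.876% of all genes called lower. RD28 stood at 277, 309.6 and 454 CPM and at 58.6, 74.7 and 75.3 CPM (log2 -2.32, edgeR adjusted p = 0.0045). As in every called gene, the groups of AGP12 and of RD28 did not overlap.

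Among other enzymes of starch breakdown, the debranching enzyme gene ISA3 stood at 33.1, 40.6 and 34.1 CPM at 22 °C and at 95.4, 155 and 179 CPM after 6 h (log2 2.00, edgeR adjusted p = 0.00041). PHS2, a starch phosphorylase, was also called higher, with 1.13. Of 16 GH3 genes BRU6 rose, while WES1, PBS3 and GH3.9 fell, with log2 fold changes of -1.99, -1.66 and -1.34. Of 8 beta-tubulin genes TUB5 and TUB9 rose, with 1.52 and 1.08, and TUB8 fell. Of all genes, 0.492% were called higher and 0.876% lower. SHP1, a gene of the silique valve margin, stood at 37.7, 29.8 and 27.1 CPM and at 68.9, 62.2 and 57.5 CPM (log2 0.99, edgeR adjusted p = 0.0036), just under the fold minimum.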
